A study of Mus musculus with 17 samples.

Results

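A group of 42 genes that fold, check and export secreted proteins in the endoplasmic reticulum (ER) was followed through B cell stages in mice with and without a p52 knock-in. The genes were taken by name from a table of counts with 55536 gene rows: 18 chaperones and folding enzymes, 9 genes of quality control and ER-associated degradation (ERAD), 11 of the translocon and signal peptidase, and 4 of the unfolded protein response. All 42 were among the 15352 genes with enough counts to be tested, and none was lost to the filter on low counts. Ddit3 had a second row under the same symbol with 0 counts, which was not used.

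Total RNA was sequenced, from very little input and with the SMARTSeq v2 full-length protocol, from B cells sorted from the mouse spleen in 3 stages, naive, activated and germinal centre (GC), from mice with a knock-in of p52 (p52ki) and from wild-type (WT) mice. p52 is the NF-kB subunit made from Nfkb2, and the series title ties a complex of p52 and ETS1 to GC formation. There were 3 libraries of p52ki naive cells, 3 of p52ki activated cells and 2 of p52ki GC cells, and 3 libraries of WT cells at each stage. The labels do not describe the knocked-in allele, the strain and age of the mice, the immunisation or the sorting gates. They also do not say that the libraries of a group are from different mice, and a p-value below therefore reflects spread among libraries that may in part be technical.

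The ER lumen is where antibody chains are folded and assembled. New chains enter through the Sec61 channel, lose their signal peptide to the signal peptidase, and meet chaperones such as BiP (Hspa5) and GRP94 (Hsp90b1) and disulfide isomerases of the Pdia family. Chains that fail to fold are pulled back to the cytosol and degraded by ERAD, with derlins and EDEM proteins among its parts. Overload of the ER is sensed by IRE1 (Ern1), PERK and ATF6, which raise the production of these same chaperones, largely through XBP1, ATF6 and ATF4. B cells that turn into antibody-secreting plasma cells are known to switch on this programme through XBP1.

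Promoter sequences are shown first because ATF6 and XBP1 are known to act through short DNA elements, of which the ER stress response element (ERSE) is the best known. Promoter windows from RefSeq (GRCm38.p6, 250 bases before to 50 after the start of transcription, 300 in all) were found for 34 of the 42 genes. The ERSE was searched on both strands as CCAAT and CCACG with 9 free bases between them and no mismatch. It was present in 9 of the 34 members, or 26.5%, against 37 of 27025 genes with such a window, or 0.137%, and in 1 of 83 other secretory genes (1.2%). The list holds chaperones that ATF6 and XBP1 are known to raise. A share above that of all genes is therefore a description of the list and not a test. The matches, written so that they start with CCAAT, with the spelled bases in capitals and the free bases in lower case, were as follows.
Hspa5: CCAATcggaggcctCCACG
Hsp90b1, upstream match: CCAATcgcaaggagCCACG
Hsp90b1, match nearer the start: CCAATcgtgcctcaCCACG
Calr: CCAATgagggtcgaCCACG
Canx: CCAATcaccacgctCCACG
Pdia6: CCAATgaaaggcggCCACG
Dnajc3: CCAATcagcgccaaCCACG
Creld2: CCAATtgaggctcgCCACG
Derl3: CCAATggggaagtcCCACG
Syvn1: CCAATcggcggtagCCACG

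A related element, ERSE-II (ATTGG and CCACG with 1 free base between them), was found in Dnajb11 and Herpud1, that is in 2 of 34 members (5.88%), in 0.0444% of all genes and in 1 of 83 other secretory genes (1.2%). The 8 letters TGACGTGG, a core of the element bound by XBP1 and ATF6, were found in Txndc5 and Txndc11, again 5.88% of the members against 0.714% of all genes, and in 6 of 83 other secretory genes (7.23%). TTGCATCA, a form of the amino acid response element bound by ATF4, was found only in Herpud1 among the members (2.94%, against 1.03% of all genes and 2.41% of the 83 other secretory genes). No match overlapped another motif searched for. A match describes the letters in these windows and not binding of a factor.

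Whole windows are printed for 4 members on which the results below turn, 5′ to 3′ on the gene's own strand, with the ERSE match in capitals where there is one. Hspa5 is at chr2:34771840-34772139 (plus strand), Derl3 at chr10:75893148-75893447 (plus strand), Edem1 at chr6:108828391-108828690 (plus strand) and Pdia4 at chr6:47813463-47813762 (minus strand), all on GRCm38.p6. Edem1 and Pdia4 had no match to any of the 4 motifs in this window. The Pdia4 window lies wholly upstream of the gene span given for Pdia4 below, so bases at that annotated start were not searched.
Hspa5: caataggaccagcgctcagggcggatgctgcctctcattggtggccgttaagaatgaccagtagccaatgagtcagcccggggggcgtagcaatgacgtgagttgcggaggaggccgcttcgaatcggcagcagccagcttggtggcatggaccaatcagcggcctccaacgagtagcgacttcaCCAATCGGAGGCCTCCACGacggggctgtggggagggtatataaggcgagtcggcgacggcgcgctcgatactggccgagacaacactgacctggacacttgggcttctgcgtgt
Derl3: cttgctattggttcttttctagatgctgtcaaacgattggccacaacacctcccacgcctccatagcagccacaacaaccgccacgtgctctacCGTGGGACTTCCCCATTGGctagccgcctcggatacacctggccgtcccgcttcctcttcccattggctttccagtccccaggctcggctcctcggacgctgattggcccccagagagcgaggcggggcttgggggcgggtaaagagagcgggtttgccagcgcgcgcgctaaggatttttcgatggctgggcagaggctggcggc
Edem1: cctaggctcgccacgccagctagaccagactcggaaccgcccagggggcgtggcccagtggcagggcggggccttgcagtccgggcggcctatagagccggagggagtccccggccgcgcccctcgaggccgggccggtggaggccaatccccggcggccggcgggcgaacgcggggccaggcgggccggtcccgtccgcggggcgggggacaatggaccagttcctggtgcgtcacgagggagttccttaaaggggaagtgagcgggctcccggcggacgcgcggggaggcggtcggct
Pdia4: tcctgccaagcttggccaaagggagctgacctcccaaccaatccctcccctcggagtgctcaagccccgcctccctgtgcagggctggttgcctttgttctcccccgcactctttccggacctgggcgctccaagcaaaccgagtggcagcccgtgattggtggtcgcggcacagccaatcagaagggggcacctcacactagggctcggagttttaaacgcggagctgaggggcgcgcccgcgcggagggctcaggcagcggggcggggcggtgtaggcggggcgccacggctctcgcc

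Levels are given in CPM, the usual scaling of counts to library size, here after TMM normalisation between libraries. Per kilobase of exon, which allows genes to be compared, the mean over the 6 groups was highest for Calr (205.8 CPM per kb), Hspa5 (186.8), Pdia4 (179.2), Pdia3 (138.7) and Hsp90b1 (138.4), and lowest for Ern1 (0.288) and Hyou1 (0.977). Libraries held 4067281 to 10036347 counts. Of the GC libraries 3 had few detected genes: p52ki GC replicates 2 and 5 with 11390 and 13044, and WT GC replicate 3 with 11232. The other 14 had 16745 to 19672. B cell markers summed to 9219 to 20276 CPM, against 32.9 to 127 for markers of T cells, 2.04 to 80.5 for those of macrophages, monocytes and dendritic cells, 0 to 44.6 for those of NK cells and 8.08 to 194 for those of erythroid cells and platelets. The 7 GC markers summed to 739 and 1167 CPM in p52ki GC cells and 1778 to 2401 in WT GC cells, against 54.3 to 169 in all naive and activated libraries. The 12 plasma cell markers, which are not members, summed to 2738, 4040.3 and 2246 CPM in p52ki activated cells and 5372, 2658 and 8967 in WT activated cells, against 878 to 964 in the naive libraries of both genotypes.

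Summed over the 42 members, p52ki naive libraries had 6966, 7019.8 and 7340.5 CPM and WT naive libraries 7395, 6802 and 7092. Activated cells had 8134, 8733 and 7254 in p52ki and 8204, 8442 and 10982 in WT. GC cells had 6119 and 7079 in p52ki and 8017, 6724 and 9108 in WT. WT activated replicate 4 was the highest library and p52ki GC replicate 2 the lowest. The chaperone sum was lower in both p52ki GC libraries (2831 and 3352 CPM) than in any naive or activated library, and WT GC replicate 3 (3143 CPM) lay between them.

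**Figure D1:**
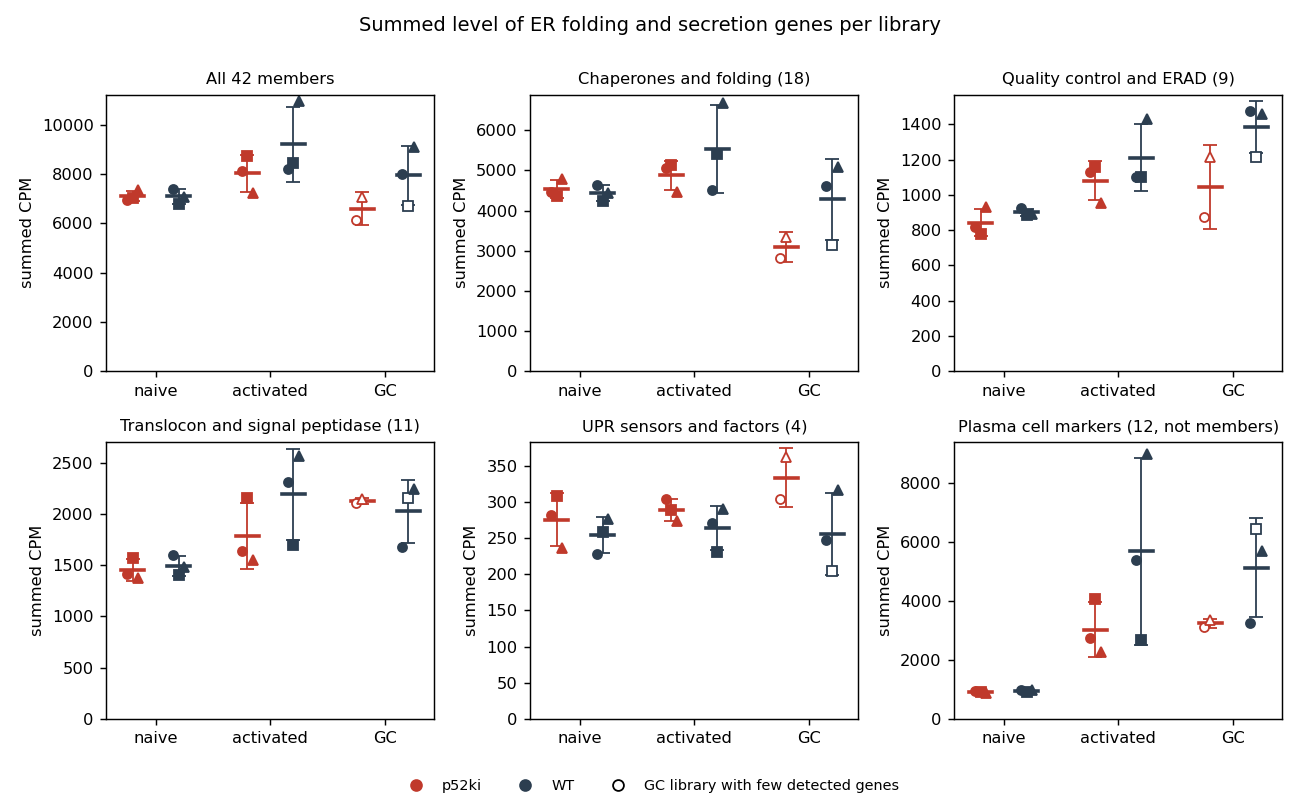
Summed CPM per library for all members, the 4 roles and the plasma cell markers, by stage, with p52ki left of WT; bars are mean and SD, marker shapes tell libraries of a group apart, and open symbols are the GC libraries with few detected genes. Plasma cell markers were highest in WT activated replicate 4 (8967 CPM), which also had the highest member sum (10982 CPM), and the chaperone sums of p52ki GC cells were 2831 and 3352 CPM.

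Activated WT cells were compared with naive WT cells first. A member is said to be called, to rise or to fall where the adjusted p is under 0.05. Derl3 and Edem1, both of ERAD, were higher in activated cells, and 38 of the 42 members had a positive change. Of the chaperones, Pdia4, Txndc11, Txndc5 and Dnajb11 were above the naive range in all 3 activated libraries without passing the test. Hspa5, Calr, Pdia3 and Pdia6 overlapped between the stages.

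Derl3 (ENSMUSG00000009092, chromosome 10, 75893413 to 75895941 on GRCm38) encodes a derlin, a membrane protein through which misfolded chains leave the ER. In naive cells it was at 5.1, 7.38 and 7.32 CPM in p52ki and 5.02, 3.93 and 3.67 in WT. Activated cells had 22.4, 33.2 and 21.3 CPM in p52ki and 23.4, 22.3 and 71.8 in WT, and GC cells had 57.4 and 36.7 in p52ki and 24.0, 49.7 and 47.5 in WT. All activated and GC libraries lay above all naive libraries in both genotypes, and WT activated replicate 4 stood above the rest. In edgeR's quasi-likelihood fit, with p-values adjusted over all genes after Benjamini and Hochberg, Derl3 rose in activated against naive WT cells (log2 fold change 3.21, SE 0.512, adjusted p = 0.00928). With a block for replicate number in the fit Derl3 was not called, though the labels do not say that these numbers pair libraries.

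Edem1 (ENSMUSG00000030104, chromosome 6, 108828641 to 108859356) encodes a mannosidase-like protein that marks misfolded glycoproteins for degradation. It was at 91.4, 70.0 and 99.4 CPM in p52ki naive cells and 90.6, 80.7 and 94.8 in WT naive cells. After activation the level was 174, 149 and 116 CPM in p52ki cells and 214, 205 and 300.3 in WT cells, and in GC cells it was 206 and 169.6 in p52ki and 308, 217 and 283 in WT. Naive libraries were again the lowest throughout, and within activated and within GC cells every p52ki library was below every WT library. Edem1 rose in activated against naive WT cells (log2 fold change 1.43, SE 0.228, adjusted p = 0.00906, edgeR).

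**Figure D2:**
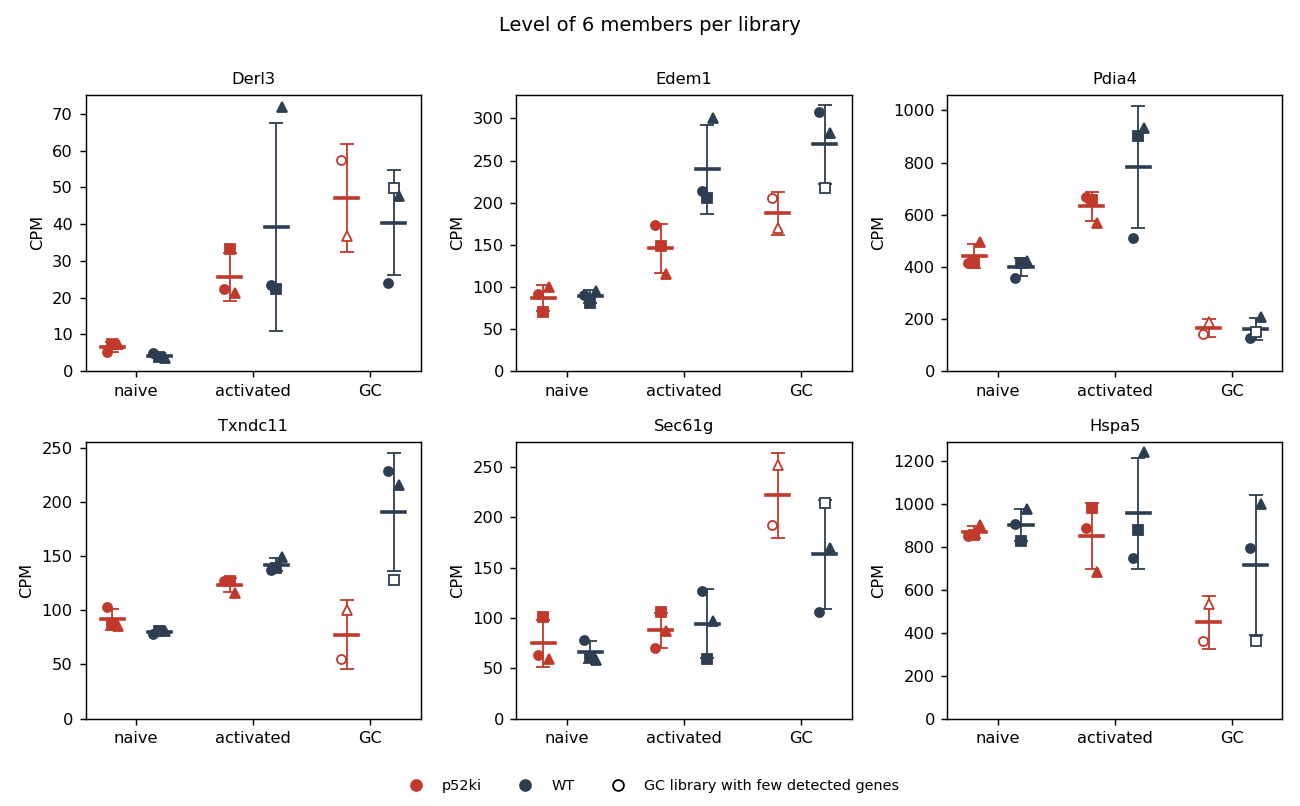
CPM per library of 6 members by stage, with p52ki left of WT; bars are mean and SD, marker shapes tell libraries apart, and open symbols are the GC libraries with few detected genes. Derl3 and Edem1 were above the naive level in activated and GC cells, Pdia4 was lowest in GC cells (126 to 209 CPM), and Txndc11 was at 54.7 and 100.1 CPM in p52ki GC cells against 128 to 228 in WT GC cells.

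Of the chaperones, Pdia4 (ERp72, a disulfide isomerase; chromosome 6, 47796141 to 47813430) was at 414, 413 and 494 CPM in p52ki naive cells and 358, 415 and 424 in WT naive cells. It was at 668, 657 and 569 in p52ki activated cells and 512, 902 and 931 in WT activated cells, above the naive range in both genotypes. In GC cells it was at 141 and 188 in p52ki and 126, 151 and 209 in WT, below every naive library. Its change in activated WT cells missed the threshold (log2 fold change 0.97, SE 0.238, adjusted p = 0.128, edgeR).

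Txndc11, a thioredoxin-domain protein of the ER that in human cells binds EDEM proteins, was at 103, 86.1 and 85.5 CPM in p52ki naive cells and 77.6, 80.4 and 80.9 in WT naive cells. Values in activated cells were 127, 127 and 116 CPM in p52ki and 137, 139 and 149 in WT, with 54.7 and 100.1 in p52ki GC cells and 228, 128 and 216 in WT GC cells. The 3 WT activated libraries were close together and above all p52ki activated libraries, and the p52ki GC libraries were below all WT GC libraries. In activated WT cells its log2 fold change of 0.83 was not called (SE 0.243, adjusted p = 0.249, edgeR).

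Hsp90b1 (GRP94), the ER form of HSP90, was at 532, 466 and 649 CPM in p52ki naive cells and 548, 527 and 535 in WT naive cells. For activated cells the libraries gave 709, 538 and 699.5 CPM in p52ki and 500.4, 854 and 1143 in WT, and for GC cells 390.5 and 251 in p52ki and 420.4, 363 and 593 in WT. WT activated libraries ranged widely, with replicate 1 below all WT naive libraries. The log2 fold change in activated WT cells was 0.63 (SE 0.277, adjusted p = 0.786, edgeR), and that of Creld2, a stress-induced ER protein, was 1.09 (SE 0.361, adjusted p = 0.414). Of the exon bases of Hsp90b1, 15.7% are shared with other genes on either strand, and the library protocol does not mark strand, so such reads cannot be told apart.

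Hspa5 (BiP), the chief ER HSP70 chaperone, was at 851, 854 and 899 CPM in p52ki naive cells and 905, 826 and 974 in WT naive cells. Activated cells had 887, 982 and 683 CPM in p52ki and 747, 876 and 1242 in WT, and GC cells had 361 and 535 in p52ki and 794, 360.0 and 998 in WT. Naive and activated libraries overlapped in both genotypes, and the 3 GC libraries with few detected genes had the 3 lowest values of the series.

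Calr (calreticulin), the lectin chaperone of glycoproteins, was at 673, 765 and 721 CPM in p52ki naive cells and 725, 591 and 587 in WT naive cells. After activation the level was 634, 641 and 618 CPM in p52ki cells and 537, 616 and 649 in WT cells, and in GC cells it was 391 and 476 in p52ki and 570.3, 469 and 570.1 in WT. In p52ki cells all activated libraries were below all naive ones, and the 3 lowest values of the series were those of the GC libraries with few detected genes.

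The 11 translocon and signal peptidase genes all had a positive change in activated WT cells, with a median log2 fold change of 0.52 and none called. Sec11c, a catalytic subunit of the signal peptidase, was at 263, 311 and 251 CPM in p52ki naive cells and 325, 313 and 294 in WT naive cells. It was at 359, 452 and 363 in p52ki activated cells and 517, 375 and 581 in WT activated cells, and in GC cells at 657 and 441 in p52ki and 226, 415 and 348 in WT. Activated libraries lay above naive ones in both genotypes, and the p52ki GC libraries lay above all WT GC libraries. The log2 fold change of Sec11c in activated WT cells was 0.66 (SE 0.235, adjusted p = 0.501, edgeR), and that of Ssr2, of the translocon-associated TRAP complex, was 0.88 (SE 0.353, adjusted p = 0.68).

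Over all 42 members, 2 were called higher and 0 lower in activated WT cells by edgeR's test, where 0.319% of all genes tested were called, 0.254% higher and 0.0651% lower. DESeq2 called 4 members and limma voom with quality weights 20, Pdia4, Txndc11 and Hsp90b1 among the 20. With the replicate block only Edem1 was called. Positive changes had 38 of 42 members against 50.1% of all genes, and the median log2 fold change was 0.44 against 0.00 for all genes. In 10 members and 9.46% of all genes the 3 activated libraries lay above the 3 naive ones, and in 0 members and 9.35% of all genes below. The 12 plasma cell markers were all positive too, with Jchain at 4154, 1531 and 7356 CPM in activated and 25.5, 10.1 and 13.8 in naive WT cells. Prdm1, which drives plasma cell fate, was at 1.09, 16.6 and 17.1 CPM in activated and 0.49, 2.58 and 1.01 in naive WT cells. Sdc1 (CD138) was at 7.82, 17.6 and 32.5 CPM in activated and 11.9, 13.5 and 14.6 in naive WT cells. The part of plasma cell RNA in the members' change was not tested, and in sorted bulk cells more cells of a type and more RNA per cell cannot be told apart. No member was called without WT activated replicate 4, whose member and plasma cell marker sums were the highest, and the median then was 0.27, and none without WT naive replicate 1, 3 or 4.

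Members with and without an ERSE can be set side by side as a description. Of the 9 members with an ERSE 7 had a positive change in activated WT cells, with a median log2 fold change of 0.08, and of the 25 with a window but no ERSE 24 were positive, with a median of 0.45.

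**Figure D3:**
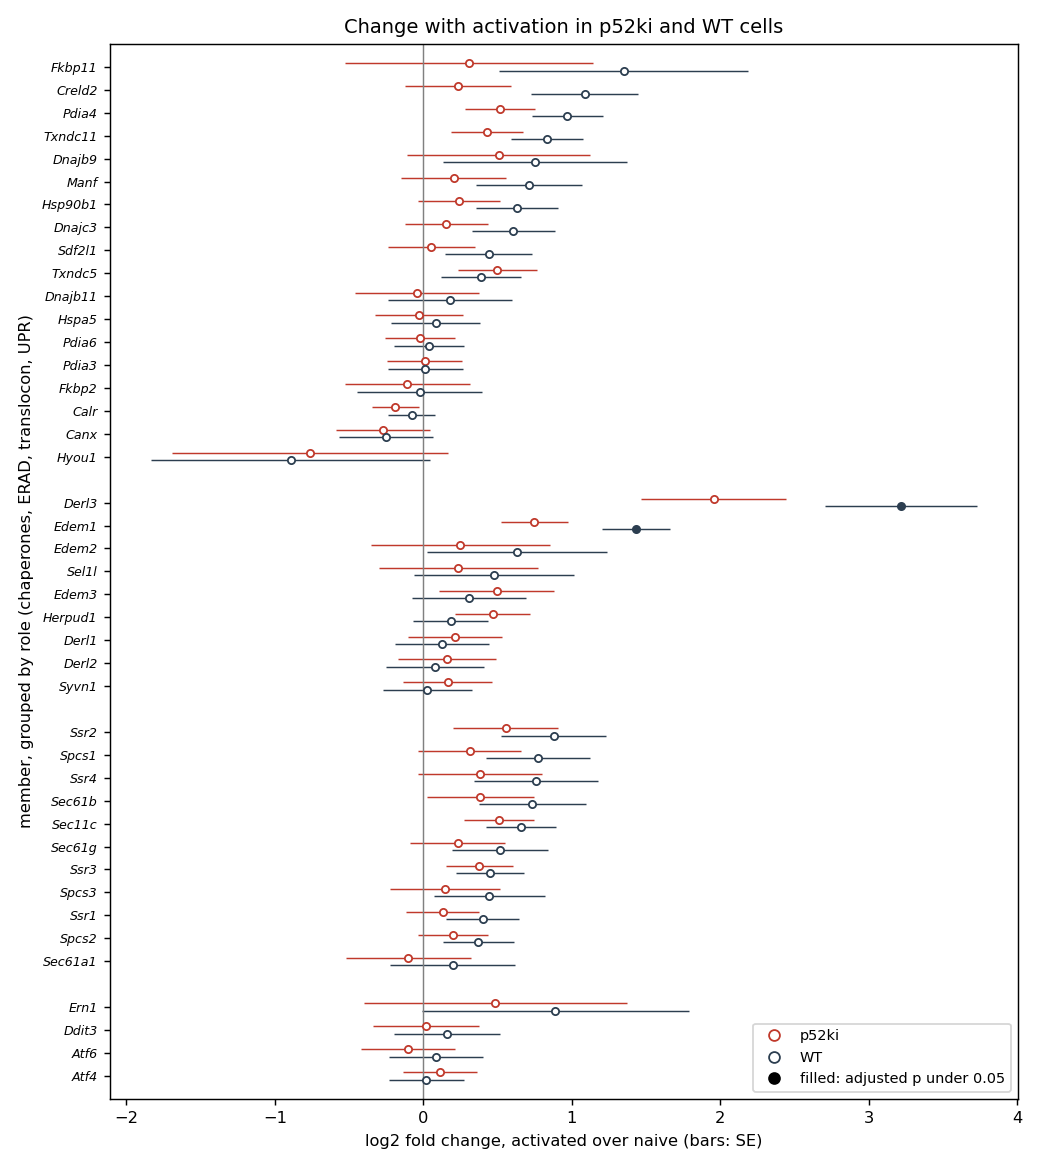
Log2 fold change with activation of each member, p52ki above WT, with SE bars and filled symbols for an adjusted p under 0.05. Derl3 (3.21) and Edem1 (1.43) in WT cells are the filled points, and in the translocon block the p52ki estimate is the smaller for all 11 genes.

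In activated against naive p52ki cells 33 of 42 members had a positive change, against 50.4% of all genes, and none passed edgeR's test. Derl3 had a log2 fold change of 1.96 (SE 0.486, adjusted p = 0.258, edgeR), Edem1 of 0.75 (SE 0.225, adjusted p = 0.491), Pdia4 of 0.52 (SE 0.236) and Sec11c of 0.51 (SE 0.235). In each of these 4 the activated libraries lay above the naive ones. Of all genes 0.117% were called in this comparison. The members' median was 0.22 against 0.00 for all genes, and 8 members were without overlap higher and 1, Calr, lower, against 10.8% and 8.12% of all genes. At an unadjusted p under 0.05 the number was 4, and DESeq2 called 1 member, limma voom with quality weights 5 and a fit of these groups alone 1. Jchain was at 1597, 2773 and 1326 CPM in p52ki activated cells and 10.1, 30.6 and 10.4 in p52ki naive cells.

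Set side by side, activated p52ki cells had lower estimates than activated WT cells for 33 of 42 members, where 49.6% of all genes had a positive difference, and again none was called by edgeR's test (0.013% of all genes were called). The 11 translocon and signal peptidase genes were all lower, with a median log2 difference of -0.31, and the 42 members had a median of -0.20, against a value that rounds to 0.00 for all genes. Edem1 differed by -0.72 (SE 0.224, adjusted p = 1), Creld2 by -0.90 (SE 0.359, adjusted p = 1), Fkbp11, a prolyl isomerase of secretory cells, by -1.55 (SE 0.845) and the secreted ER stress protein Manf by -0.63 (SE 0.355). In Edem1, Txndc11 and Fkbp11 all 3 p52ki libraries were below all 3 WT libraries, and 0 members were without overlap higher, against 2.95% and 3.15% of all genes. At an unadjusted p under 0.05 the number of members was 2, DESeq2 called 0, and limma voom with quality weights called 2, Edem1 and Creld2. Without WT activated replicate 4 the members' median was -0.07. Library numbers in the labels run from 1 to 12 for WT and from 19 to 30 for p52ki, so a batch that follows them and genotype cannot be told apart.

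The difference between genotypes in the activation change was tested directly. It was negative, that is a smaller change in p52ki, for 34 of 42 members, where 48.7% of all genes were positive, with a median log2 difference of -0.24, against -0.01 for all genes, and 0 of 42 members and 0% of all genes were called by edgeR's test. The value was -0.69 for Edem1 (SE 0.316), -1.26 for Derl3 (SE 0.671) and -0.86 for Creld2 (SE 0.505), each with an adjusted p of 1. At an unadjusted p under 0.05 the number was 1, and DESeq2 and limma voom with quality weights called 0. Without WT activated replicate 4 the median was -0.10. Of the 12 plasma cell markers 11 were negative too, and their part in the difference was not tested.

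Before activation, p52ki and WT naive cells had 0 of 42 members called by edgeR's test, as for 0% of all genes, with 0 at an unadjusted p under 0.05 and 0 called by DESeq2 or limma voom with quality weights. Their median log2 difference was -0.01, against 0.01 for all genes, with 19 positive, against 51.9% of all genes. In 4 members (Txndc11, Dnajb11, Derl3 and Ssr1) the p52ki naive libraries lay above the WT ones and in 3 (Txndc5, Derl1 and Derl2) below, against 5.21% and 5.48% of all genes. The nearest p52ki and WT libraries were all but equal for Dnajb11 (141.028 and 141.024 CPM) and Txndc5 (330.942 and 330.948 CPM). For Derl3 the log2 difference was 0.65 (SE 0.482, adjusted p = 1).

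In WT GC cells, the end of the stage series, Derl3, Edem1 and Txndc11 and the small subunits of the Sec61 channel were above their naive level while Pdia4 was below it. Against naive WT cells 6 members were called higher (Derl3, Edem1, Txndc11, Sdf2l1, Sec61b and Sec61g) and 1 lower (Pdia4) by edgeR's test, where 15.9% of all genes were called, 8.45% higher and 7.47% lower. The share of members called in either direction was thus near that of all genes. Without overlap, 12 members were higher and 2 lower, against 16.1% and 25.4% of all genes. Of all members 30 of 42 were positive, against 44.3% of all genes, and the median log2 fold change was 0.28 against -0.16 for all genes. By role, 2 of 9 ERAD genes, 2 of 11 translocon genes and 2 of 18 chaperones were higher.

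In GC against naive WT cells the log2 fold change was 3.26 for Derl3 (SE 0.513, adjusted p = 0.000469), 1.6 for Edem1 (SE 0.229, adjusted p = 0.000198) and 1.26 for Txndc11 (SE 0.245, adjusted p = 0.00232, edgeR). Sdf2l1, a cofactor of BiP, was at 32.3, 32.2 and 33.7 CPM in p52ki naive cells and 47.5, 25.1 and 26.3 in WT naive cells. Values in activated cells were 31.7, 37.1 and 33.4 CPM in p52ki and 41.6, 37.0 and 55.6 in WT, with 56.0 and 38.9 in p52ki GC cells and 69.6, 66.6 and 70.5 in WT GC cells. The 3 WT GC libraries were close together and were the 3 highest of the series, with a log2 fold change of 1.06 over WT naive cells (SE 0.296, adjusted p = 0.0232, edgeR).

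Sec61b and Sec61g encode the small subunits of the Sec61 channel. Sec61b was at 65.6, 100.2 and 52.8 CPM in p52ki naive cells and 80.7, 61.7 and 69.1 in WT naive cells, at 68.3, 127 and 90.5 in p52ki activated cells and 168, 67.5 and 117 in WT activated cells, and at 196 and 198 in p52ki GC cells and 99.8, 218 and 165 in WT GC cells. Sec61g was at 63.5, 101 and 59.2 CPM in p52ki naive cells and 78.5, 61.2 and 58.6 in WT naive cells, at 70.3, 106 and 87.1 in p52ki activated cells and 127, 59.3 and 97.5 in WT activated cells, and at 192 and 252 in p52ki GC cells and 106, 214 and 169 in WT GC cells. For both genes the 3 GC libraries with few detected genes were the 3 highest of all 17 libraries, and WT GC replicate 1 was the lowest GC library. In GC against naive WT cells the log2 fold change was 1.19 for Sec61b (SE 0.361, adjusted p = 0.0358) and 1.30 for Sec61g (SE 0.326, adjusted p = 0.0126, edgeR). The large channel subunit, Sec61a1, did not share this pattern, at 168, 40.9 and 165 CPM in WT GC cells and 110.1, 122 and 132 in WT naive cells, with the sparse WT GC replicate 3 the lowest.

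Pdia4 fell in GC cells against both earlier WT stages, with a log2 fold change of -1.30 against naive cells (SE 0.24, adjusted p = 0.00163) and of -2.27 against activated cells (SE 0.247, adjusted p = 4.88e-05, edgeR). It was the only member called between GC and activated WT cells, where 13.6% of all genes were called, 5.8% higher and 7.75% lower, and the members' median was -0.08 against -0.13 for all genes. Hsp90b1 had a log2 fold change of -0.86 there (SE 0.278, adjusted p = 0.053) and the BiP cochaperone Dnajb9 of -1.49 (SE 0.632, adjusted p = 0.14). The 2 comparisons of WT GC cells share these libraries, so they are not independent of each other. Without WT GC replicate 3 the number called in GC against activated WT cells was 3, and it was 2 without WT activated replicate 1, WT GC replicate 4 or either p52ki GC library. Without WT naive replicate 3 or 4 the number called in GC against naive WT cells was 4. The plasma cell markers summed to 3242, 6434 and 5668 CPM in WT GC cells, of which Jchain alone was 2239, 5268 and 4347. These markers did not all move the same way. Jchain, Slamf7, Xbp1 and Prdm1 were called higher than in naive WT cells by edgeR's test. Irf4 (log2 fold change -1.9888) and Tnfrsf13b (-1.0018) were called lower. Sdc1 was below the naive WT libraries in every WT GC library without being called. The part of plasma cell RNA in the members' changes in WT GC cells was not tested.

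In p52ki GC cells members were called in both directions, as were genes in general. Against p52ki naive cells 7 were higher and 8 lower by edgeR's test, where 29.1% of all genes were called, 8.68% higher and 20.4% lower, and the median log2 fold change of the members was 0.06 against -0.42 for all genes. The higher ones were 4 translocon and signal peptidase genes (Sec61b, Sec61g, Sec11c and Spcs1) and 3 of ERAD (Derl3, Edem1 and Herpud1). Without overlap, 14 members were higher and 11 lower, against 17.4% and 39.9% of all genes. The lower ones by the test were 6 chaperones (Hspa5, Calr, Pdia3, Pdia4, Pdia6 and Hyou1), Edem3 and Ern1, a share of the 42 members near that of all genes called lower. Limma voom with quality weights called no member in p52ki GC cells against p52ki naive cells or against p52ki activated cells. The difference between these counts by edgeR's test and those in WT cells was not tested. Both p52ki GC libraries are among those with few detected genes, and the part of this in the changes was not tested.

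In p52ki GC against p52ki naive cells Derl3 rose by a log2 fold change of 2.83 (SE 0.529, adjusted p = 0.0018) and Edem1 by 1.11 (SE 0.247, adjusted p = 0.00479, edgeR). Herpud1, which helps assemble the ERAD ubiquitin ligase complex, rose by 0.88 (SE 0.278, adjusted p = 0.029), at 230.1 and 467 CPM in p52ki GC cells and 187, 198 and 185 in p52ki naive cells. In WT cells Herpud1 was at 294, 371 and 382 CPM in GC and 243, 210 and 197 in naive libraries, again without overlap. That WT change was not called by edgeR's test but was by limma voom with quality weights (log2 fold change 0.69, adjusted p = 0.00327). Sec61g rose by 1.57 (adjusted p = 0.00521), Sec61b by 1.44 (adjusted p = 0.0147) and Sec11c by 1.00 (adjusted p = 0.0114, edgeR). Spcs1, a small accessory subunit of the signal peptidase, was at 109, 145 and 103 CPM in p52ki naive cells and 141, 100.025 and 117 in WT naive cells, at 111, 189.8 and 143 in p52ki activated cells and 266, 120.1 and 226 in WT activated cells, and at 238 and 313 in p52ki GC cells and 134, 345 and 185 in WT GC cells. Its p52ki GC libraries were above all p52ki naive ones (log2 fold change 1.21, SE 0.383, adjusted p = 0.0284, edgeR), while its highest value was in WT GC replicate 3. Of its exon bases 16.3% are shared with Glt8d1, on the other strand.

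Pdia4 fell in p52ki GC cells too, with a log2 fold change of -1.42 against p52ki naive cells (SE 0.278, adjusted p = 0.00236) and of -1.94 against p52ki activated cells (SE 0.284, adjusted p = 0.000435, edgeR). Against p52ki naive cells the log2 fold change was -0.73 for Calr (SE 0.181, adjusted p = 0.00862) and -0.95 for Hspa5 (SE 0.345, adjusted p = 0.0498, edgeR). Hspa5 was close to the threshold and lost its call in 13 of 17 fits that each left out 1 library. In a fit that also held each library's number of detected genes, the log2 fold change of Hspa5 was 0.18 (adjusted p = 0.690), of the opposite sign. Against p52ki activated cells 1 member was higher, Sec61g, and 9 were lower (Hsp90b1, Calr, Pdia3, Pdia4, Pdia6, Hyou1, Edem3, Spcs3 and Ern1), where 25.6% of all genes were called, 6.34% higher and 19.3% lower, and the members' median was -0.17 against -0.41 for all genes. The share of members called lower was near that of all genes. Without overlap, 7 members were higher and 14 lower there, against 15.2% and 38.2% of all genes. Both p52ki comparisons share the same 2 GC libraries. Without WT naive replicate 1 the count against activated cells was 6 and without p52ki activated replicate 2 it was 5, and without p52ki naive replicate 5 the count against naive cells was 9. In the fit with detected genes, 2 members were higher and 1 lower against activated cells, and 5 higher and 1 lower against naive cells.

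Between the genotypes, p52ki GC cells had lower levels of the disulfide isomerases Pdia3 and Pdia6 than WT GC cells, while Pdia4 overlapped between them. By edgeR's test 7 members were lower (Pdia3, Pdia6, Txndc11, Hyou1, Edem3, Spcs3 and Ern1) and 1 higher (Ddit3), where 16% of all genes were called, 3.75% higher and 12.2% lower, so the share of members called was near that of all genes. The median log2 difference of the members was -0.29, against -0.32 for all genes, of which 38.9% had a positive difference. In 12 members the p52ki libraries lay below and in 4 above all WT libraries, against 15.4% and 9.45% of all genes.

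Pdia3 (ERp57; chromosome 2, 121413775 to 121438687), the isomerase that works with calreticulin and calnexin and in the loading of MHC class I, was at 437, 433 and 481 CPM in p52ki naive cells and 499.7, 421 and 465 in WT naive cells. For activated cells the libraries gave 447, 502 and 409.9 CPM in p52ki and 400.1, 499.9 and 500.2 in WT, and for GC cells 150.4 and 272 in p52ki and 703, 351 and 654 in WT. Naive and activated libraries of both genotypes lay between 400.1 and 502 CPM, the p52ki GC libraries were the 2 lowest of the series and WT GC replicate 3 was next. Pdia3 was lower in p52ki GC cells (log2 fold change -1.43, SE 0.294, adjusted p = 0.00605, edgeR). The difference between genotypes in its change from activated to GC cells was also called (log2 fold change -1.39, SE 0.381, adjusted p = 0.0448, edgeR). Pdia3 was 1 of 2 members called there, both negative, with 5.95% of all genes called, 0.977% positive and 4.97% negative. The share of members called was no higher than that of all genes. In 19 of 25 other settings Pdia3 lost the call for this difference.

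Pdia6, a further disulfide isomerase, which has an ERSE, was at 274, 238 and 297 CPM in p52ki naive cells and 312, 290.1 and 277 in WT naive cells. Activated cells had 256, 308 and 232 CPM in p52ki and 289, 294 and 319 in WT, and GC cells had 91.1 and 197 in p52ki and 352, 262 and 361 in WT. Naive and activated libraries stayed within a narrow range and p52ki GC replicate 2 was far below the rest. Pdia6 was lower in p52ki than in WT GC cells (log2 fold change -1.17, SE 0.274, adjusted p = 0.0123, edgeR), as was Txndc11 (log2 fold change -1.30, SE 0.282, adjusted p = 0.00831).

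Hyou1 (GRP170; chromosome 9, 44379490 to 44392369), which exchanges nucleotide on BiP, was low throughout. It was at 12.7, 5.9 and 16.3 CPM in p52ki naive cells and 8.45, 10.6 and 10.8 in WT naive cells, at 6.9, 7.16 and 6.55 in p52ki activated cells and 0.545, 10.5 and 4.76 in WT activated cells, and at 0 and 0 in p52ki GC cells and 19.2, 0.611 and 6.09 in WT GC cells. No read was counted in either p52ki GC library (adjusted p = 0.0149 against WT GC cells, edgeR). With 3 counts over the group as the floor, this is at least 29.5-fold below the WT GC mean of 8.64 CPM. WT GC replicate 3 and WT activated replicate 1 were nearly as low. Floors cover counting error in the p52ki GC libraries. They do not cover the spread of the WT GC libraries around their mean or transcripts lost before counting.

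Edem3, a mannosidase of ERAD, was at 16.2, 14.0 and 18.2 CPM in p52ki naive cells and 17.3, 14.6 and 21.02 in WT naive cells. After activation the level was 24.0, 17.9 and 26.3 CPM in p52ki cells and 28.9, 20.98 and 15.6 in WT cells, and in GC cells it was 6.78 and 4.1 in p52ki and 25.3, 15.5 and 19.2 in WT. Both p52ki GC libraries were below all others, WT GC replicate 3 included (log2 fold change -1.88, SE 0.471, adjusted p = 0.0162 for p52ki over WT GC cells, edgeR). Spcs3, the accessory signal peptidase subunit needed for cleavage, was at 36.3 and 98.9 CPM in p52ki GC cells and 99.8 to 223 in WT GC cells (log2 fold change -1.33, SE 0.437, adjusted p = 0.0499, edgeR).

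**Figure D4:**
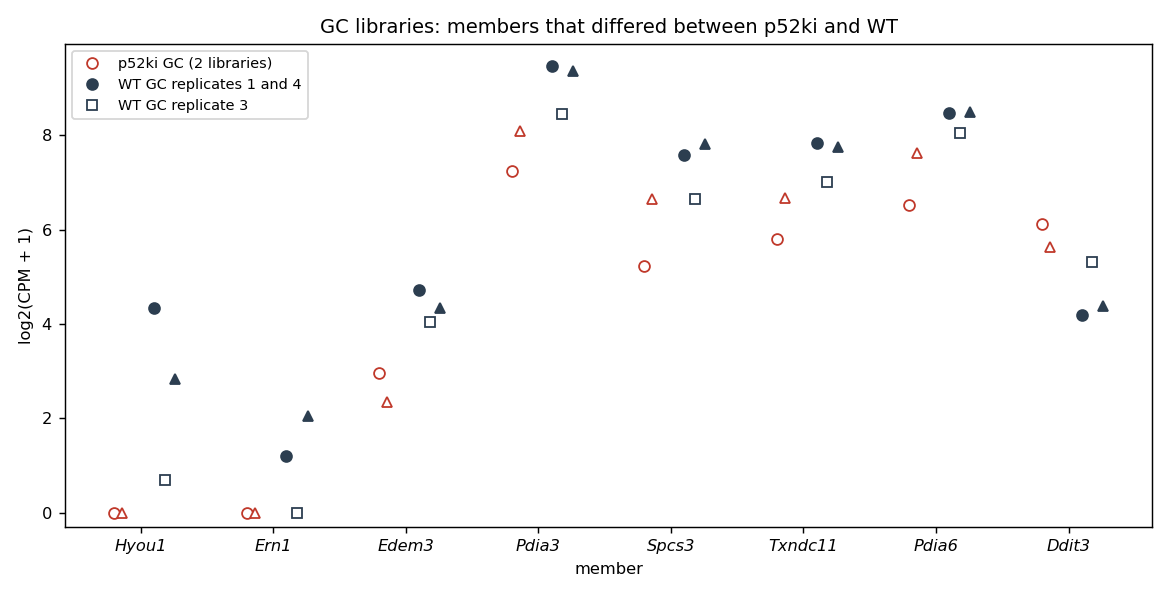
Log2(CPM + 1) of the 8 members called between p52ki and WT GC cells, with p52ki left of WT and WT GC replicate 3, the WT library with few detected genes, as open squares. WT GC replicate 3 is the WT library nearest to p52ki for all 8 members, and for Ern1 it has 0 counts like both p52ki libraries.

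These GC results rested on few libraries. With WT GC replicate 3 as the only WT GC library, 4 members were higher (Dnajb11, Dnajb9, Txndc5 and Canx) and 1 lower, Edem3, at a log2 difference of -1.51 (adjusted p = 0.0419, edgeR), where the spread of that single library is taken from the other groups. The count of 8 fell to 2 when p52ki GC replicate 2 was left out, and it was 13 without p52ki GC replicate 5. Leaving out WT GC replicate 3 gave 11. It was 6 without WT activated replicate 1 or 3, and 5 without any 1 of the other 12 libraries. It was 0 in a fit of these groups alone or by limma voom with quality weights. Ddit3, Ern1 and Spcs3 were the members nearest the threshold, and Pdia3 and Edem3 were called in all 17 fits that left out 1 library. Markers of naive cells moved with genotype, since 5 of 6 were called higher in p52ki GC cells, at a sum of 1362 and 1523 CPM in p52ki and 481, 681 and 683 in WT. GC markers summed to 739 and 1167 CPM in p52ki and 2401, 1778 and 2237 in WT. Of the 12 plasma cell markers 1 was called higher in p52ki GC cells, Irf4, at 29.3 and 40.5 CPM in p52ki and 13.0, 16.7 and 23.9 in WT, and 1 lower, Prdm1, which had 0 counts in both p52ki libraries and 4.62, 17.9 and 7.39 CPM in WT. Tnfrsf17 was at 26.2 and 6.89 CPM in p52ki and 0.128, 0 and 2.5 in WT (adjusted p = 0.0513, edgeR). Jchain was at 2437 and 2325 CPM in p52ki GC cells and 2239, 5268 and 4347 in WT GC cells, and Sdc1 at 2.91 and 0 in p52ki and 3.21, 0.611 and 6.96 in WT. T cell markers summed to 69.0 and 67.1 CPM in p52ki and 119, 48.7 and 127 in WT GC cells. Cd3d and Cd3e were called higher in p52ki, Cd3d at 11.4 and 0.82 CPM in p52ki and 0.385, 0 and 0.217 in WT and Cd3e at 26.6 and 0 in p52ki and 0.513, 0 and 0.761 in WT, while Cd3g, Cd4, Cd8a and Trac had 0 counts in both p52ki libraries and Trac was called lower. Markers of macrophages, monocytes and dendritic cells, of which 5 of 8 were at 0 in both p52ki libraries, summed to 13.8 and 37.9 CPM in p52ki and 37.3, 2.04 and 22.3 in WT. NK cell markers, with 3 of 5 at 0, summed to 32.9 and 0 CPM in p52ki and 3.21, 0.611 and 5.54 in WT. Erythroid and platelet markers, also with 3 of 5 at 0, summed to 173 and 179 CPM in p52ki and 13.5, 11.4 and 138 in WT. Csf1r, Lyz2 and the NK cell marker Klrd1 were called lower. The part of these cell types in the members' differences was not tested.

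Differences of the sparse GC libraries went with gene length, in a description added after the values were seen. Of the members 21 have 1.11 to 3.47 kb of exon and 21 have 3.52 to 10.4 kb. On the scale log2(CPM + 1), the shorter members had a median difference of -0.021 and the longer ones of -0.658 between p52ki GC cells and WT GC replicates 1 and 4. Between WT GC replicate 3 and the same 2 libraries the medians were -0.149 for the shorter and -0.479 for the longer. Across the 42 members Spearman's rho of the difference with length was -0.455 and -0.333 in these 2 comparisons, which share the WT libraries. Between WT activated and WT naive cells, none of them among the sparse libraries, the medians were 0.51 for the shorter and 0.387 for the longer members. The relation with length over all genes was not examined, and the part of length in the calls was not tested.

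Among the 4 sensors and factors of the unfolded protein response, Ern1 was lower and Ddit3 higher in p52ki GC than in WT GC cells, each close to the threshold. Ern1 (IRE1), which splices the XBP1 message, was at 1.59, 2.46 and 4.18 CPM in p52ki naive cells and 1.96, 1.23 and 3.17 in WT naive cells, at 2.93, 2.93 and 5.72 in p52ki activated cells and 1.27, 6.52 and 3.91 in WT activated cells, and at 0 and 0 in p52ki GC cells and 1.28, 0 and 3.15 in WT GC cells. The 3 GC libraries with few detected genes had no count for it. By the same floor, p52ki GC cells were at least 5.04-fold below the WT GC mean and at least 13.2-fold below the p52ki activated mean (adjusted p = 0.0466 and 0.0125, edgeR). The first bound does not hold against WT GC replicate 3, which had no count either. Levels of a few CPM leave such a gene near the limit of detection, and its call against WT GC cells was lost in 15 of 17 fits that left out 1 library.

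The other 2, Atf6 and Atf4, were not called in any of the 11 contrasts. Atf6, the sensor cleaved in the Golgi, was at 55.3, 41.8 and 52.5 CPM in p52ki naive cells and 42.2, 45.3 and 48.0 in WT naive cells, at 54.1, 28.6 and 56.8 in p52ki activated cells and 41.6, 58.9 and 43.0 in WT activated cells, and at 43.8 and 86.0 in p52ki GC cells and 41.2, 43.2 and 34.8 in WT GC cells. Its p52ki GC libraries lay above all WT GC libraries, by less than the spread of the naive and activated libraries in the case of replicate 2. Atf4, whose protein is made when translation is curbed, was at 202, 229.8 and 152 CPM in p52ki naive cells and 163, 188 and 199 in WT naive cells, at 218, 229 and 184 in p52ki activated cells and 199.8, 146 and 212 in WT activated cells, and at 192 and 229 in p52ki GC cells and 188, 122 and 259 in WT GC cells. Atf4 libraries overlapped between stages and genotypes. Ddit3 (CHOP), a target of ATF4, was at 23.6, 34.4 and 27.6 CPM in p52ki naive cells and 20.4, 24.1 and 27.1 in WT naive cells, at 29.8, 29.2 and 27.8 in p52ki activated cells and 29.1, 19.3 and 31.6 in WT activated cells, and at 68.8 and 48.2 in p52ki GC cells and 17.2, 38.9 and 19.8 in WT GC cells. Its 2 highest values were the p52ki GC libraries and the third was WT GC replicate 3 (log2 fold change 1.21, SE 0.394, adjusted p = 0.0481 for p52ki over WT GC cells, edgeR). Of its exon bases 10.9% are shared with other genes on either strand, of which Mars is one.

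The other 20 members passed the test in none of the 11 contrasts. Among the 9 chaperones and folding enzymes of this kind, mean levels over the 6 groups ranged from 302 to 463 CPM for Txndc5, from 221 to 291 for the lectin chaperone Canx, from 117 to 239.9 for Manf and from 130.3 to 165 for Dnajb11. They ranged from 81.5 to 142 CPM for Dnajc3, from 49.1 to 108 for Creld2, from 26.6 to 89.4 for Dnajb9, from 15.8 to 32.8 for Fkbp2 and from 8.14 to 29.7 for Fkbp11. Among the 5 ERAD genes Syvn1, the ubiquitin ligase Hrd1, ranged from 111 to 230.1 CPM, its partner Sel1l from 55.1 to 127, Derl1 from 148 to 189, Derl2 from 81.5 to 117 and Edem2 from 43.7 to 106. The 6 genes of the translocon and signal peptidase ranged from 210.8 to 319 CPM for Spcs2, 80.0 to 139 for Sec61a1, 116 to 173 for Ssr1, 82.9 to 158 for Ssr2, 90.6 to 146 for Ssr3 and 92.0 to 159 for Ssr4.

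Xbp1, the factor most tied to the secretory programme and not a member, was at 180.0, 203 and 204 CPM in p52ki naive cells and 284, 225 and 231 in WT naive cells. It was at 262, 360.1 and 213 in p52ki activated cells and 381, 292 and 688 in WT activated cells, and at 252 and 316 in p52ki GC cells and 398, 594 and 591 in WT GC cells. The p52ki libraries were below the WT ones in naive and GC cells and overlapped with them in activated cells. Xbp1 rose in GC against naive WT cells (log2 fold change 1.09, SE 0.288, adjusted p = 0.0173, edgeR), and its difference between p52ki and WT missed the threshold in activated cells (log2 fold change -0.70, SE 0.286, adjusted p = 1) and in GC cells (log2 fold change -0.89, SE 0.327, adjusted p = 0.0738).

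Over 97 other tested genes of targeting, glycosylation, ERAD, transport and the stress response, 0 were called in activated against naive cells of either genotype and 0 between genotypes in naive or activated cells by edgeR's test. The shares of all genes called were 0.319% in WT and 0.117% in p52ki with activation. Between genotypes they were 0% in naive and 0.013% in activated cells. At an unadjusted p under 0.05 the numbers were 3 in WT and 0 in p52ki with activation, and 0 in naive and 1 in activated cells between genotypes. Their median log2 fold change in activated WT cells was 0.07, against 0.44 for the members. In WT GC against naive cells 5 were higher and 1 lower, among them Sar1b of COPII vesicles (0.97), the ERAD ubiquitin-conjugating enzyme Ube2j1 (1.25) and Xbp1 above, with Aup1 the lower one (-0.71). In that comparison 8.45% of all genes were called higher and 7.47% lower. Aup1 was also the only one called in WT GC against activated cells (-0.62), where 13.6% of all genes were called. Against WT GC cells, p52ki GC cells had 1 higher, the retrieval receptor Kdelr1 (1.46), and 13 lower, including Stt3a of the oligosaccharyltransferase (-1.94), the phosphatase subunit Ppp1r15b (-1.56) and the ubiquitin ligase Rnf5 (-1.26). All genes were called higher in 3.75% and lower in 12.2% there, so the share called lower was near that of all genes. In p52ki GC cells 9 were higher and 15 lower than in p52ki naive cells, against 8.68% and 20.4% of all genes. They had 5 higher and 14 lower than p52ki activated cells, against 6.34% and 19.3% of all genes. Values in brackets are log2 fold changes by edgeR's test with an adjusted p under 0.05.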

How the data were processed

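Whole-number counts per gene were deposited by the authors for 17 libraries. Per the submitters' processing notes the tools were HISAT2 (2.1.0), featureCounts from Subread (1.6.2) and SAMtools (1.8), on the GRCm38 build. Which annotation release, strand setting and treatment of multiply matching reads applied is not given in the sources used here, and no molecular identifiers are named. Of 55536 rows 15352 passed edgeR's filterByExpr, all 42 members among them, and 55450 identifiers were found in GENCODE M21 for lengths and coordinates.

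Counts were scaled by TMM and fitted over all 6 groups with edgeR 4.0.16 (quasi-likelihood, 11 contrasts, Benjamini-Hochberg adjustment over all genes tested, calls at an adjusted p under 0.05) in R 4.3.3. SEs are the log2 fold change divided by the square root of the F statistic. CPM are TMM-scaled. Alternatives used DESeq2 1.42.0, limma 3.58.1 (voom with quality weights), other scaling and filters, covariates and libraries left out. The procedure was tested on simulated data. Libraries differed within every group by more than sampling noise (chi-square per degree of freedom 7.89 to 116). The members and lists were chosen with earlier results of these data known. Values per library are given for the 16 members with the smallest p in any contrast and for Atf6, Atf4, Ddit3 and Hspa5, and by range for the rest. An erythroid marker is not reported here. Floors of 3 counts cover counting error only.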

Additional observations from a re-analysis of the deposited data

Results flagged for a closer look

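The change of 2 members from activated to GC cells differed between p52ki and WT cells by the test of the difference itself, where 5.95% of all genes were called. For Pdia3 the difference was -1.39 on the log2 scale (SE 0.381, adjusted p = 0.0448, edgeR), with p52ki libraries lower in GC than in activated cells and WT GC replicates 1 and 4 higher than all WT activated libraries. WT GC replicate 3 went the other way. For Hyou1 the fitted difference was -9.47 (SE 2.44, adjusted p = 0.0379, edgeR), a value that rests on 0 counts in both p52ki GC libraries and is no bound. Pdia3 lost its call in 15 of 17 fits that each left out 1 library and Hyou1 in 14 of 17.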

How the results depend on the processing

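The labels do not say that replicate numbers pair libraries. Deviations of same-numbered libraries from their group means correlated between -0.229 and 0.281 in 16 pairs, 4 of them over 0.1, and between naive and activated cells all 6 correlations were positive, from 0.079 to 0.281, so not every pair passed 0.1. With the replicate block the count was 1 for WT activated against naive cells (Edem1, without Derl3), 2 for WT GC against activated, 5 for WT GC against naive, 0 for p52ki activated against naive, 7 for p52ki GC against activated, 13 for p52ki GC against naive, 0 for the difference of GC against activated changes (without Pdia3 and Hyou1) and 0 for that of the activation changes. No paired analysis was possible between p52ki and WT because they share only replicate number 3. DESeq2 called 4 members in WT activated against naive cells, 2 in WT GC against activated, 1 in p52ki activated against naive and 5 for the difference of GC against activated changes. Limma voom with quality weights called 20, 9, 5 and 0 in the same comparisons, 15 in WT GC against naive cells, 2 in p52ki against WT activated cells and 0 in p52ki GC against p52ki activated, p52ki naive or WT GC cells. With the groups compared alone the count was 1 in p52ki activated against naive cells, 4 in p52ki GC against activated, 0 in p52ki against WT GC and 0 for the difference of GC against activated changes. With detected genes as a covariate it was 3 in p52ki GC against activated cells, 6 in p52ki GC against naive and 4 in WT GC against activated, and Hspa5 was at 0.18 on the log2 scale in p52ki GC against naive cells, against -0.95 without it. The causes were not tested. RLE scaling, which moved the median of all genes in WT GC against activated cells to -0.23 against -0.13 with TMM, and no filter on low counts each gave 2 there. With WT GC replicate 3 as the only WT GC library the count in p52ki against WT GC cells was 5. Leaving out each library in turn gave 0 to 3 in WT activated against naive cells, 1 to 3 in WT GC against activated, 4 to 10 in WT GC against naive, 5 to 13 in p52ki GC against activated, 9 to 19 in p52ki GC against naive, 2 to 13 in p52ki against WT GC and 0 to 9 for the difference of GC against activated changes, and 0 to 0 for p52ki activated against naive, for p52ki against WT in naive and in activated cells and for the difference of the activation changes. Over the single members named, these fits kept direction and side of the threshold in 991 cases, lost the call in 153, gained it in 12 and reversed in 0. Pdia4 in both WT GC comparisons, and Derl3, Edem1 and Txndc11 in WT GC against naive cells, were called in all 25 settings. Depth of 4067281 to 10036347 counts limits genes of a few CPM such as Ern1 and Hyou1.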
